A study of Homo sapiens with 40 samples.

Results

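The AP-1 and immediate early genes followed here are 10 genes, several of which cells switch on within minutes of a stimulus. They were taken as a fixed list by gene symbol, and all 10 were in the table of 58395 genes. All 10 also passed the filter of at least 10 counts summed over the libraries, which kept 28922 genes for testing. The list holds FOS, FOSB, FOSL1 and FOSL2 of the Fos family, JUN, JUNB and JUND of the Jun family, the zinc finger factors EGR1 and EGR2, and IER3, an early response gene linked to cell survival. Their RNA was counted in HEK293A, an adherent human embryonic kidney cell line, by RNA sequencing of poly(A) RNA in 40 libraries. Unmodified cells (WT) were compared with a single clone in which PARP1 had been disrupted by CRISPR/Cas9 (PARP1-KO), each under 5 treatments, with 4 libraries in each of the 10 groups.

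The treatments were no treatment, 0.1% DMSO, topotecan (Tpc) with 0.1% DMSO, 5 μM OL9-119 in 0.1% DMSO, and Tpc together with OL9-119. Tpc is a poison that traps topoisomerase 1 on DNA, OL9-119 inhibits TDP1, an enzyme that removes trapped topoisomerase 1, and DMSO is the solvent. Tpc was given at 100 nM to WT and at 50 nM to PARP1-KO cells, so genotype and dose cannot be told apart where the Tpc responses of both lines are compared. PARP1-KO stands for 1 clone, so the loss of PARP1 and other traits of that clone cannot be told apart in any comparison of the genotypes. The labels of this clone read knockdown in the genotype field and KO in the titles. RNA was taken after 5 to 5.5 h of exposure. The labels call the 4 libraries of a group biological replicates and the study's methods call them technical, and in the second case the tests measure only technical spread.

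AP-1 is a dimer of a Jun protein with a Fos protein, another Jun protein or a related bZIP factor of the ATF or MAF groups, and it binds DNA through a basic region beside a leucine zipper. Growth factors, DNA breaks, cytokines and stalled ribosomes reach these genes through the MAP kinases ERK, JNK and p38. ERK signals act through serum response factor and its ternary complex partners on FOS, EGR1, EGR2 and FOSB, whereas JNK phosphorylates JUN protein, which acts on its own gene together with ATF2. The RNAs of most of these genes are short-lived, and their levels in unstimulated cells are low.

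The 250 bases before the transcript start are shown for EGR1 and JUN, since EGR1 was the 1 gene lowered when OL9-119 was added to Tpc and JUN the most abundant of those raised by every agent in WT cells. They were read from RefSeq (GRCh38.p14), which held 8 of the 10 genes, without FOSL1 and IER3. EGR1 lies on the plus strand, and the stretch spans chr5:138465229-138465478. JUN lies on the minus strand, and the stretch spans chr1:58784048-58784297. Both are written 5′ to 3′ in the direction of transcription, with the matches to the searched motifs in capitals.
EGR1: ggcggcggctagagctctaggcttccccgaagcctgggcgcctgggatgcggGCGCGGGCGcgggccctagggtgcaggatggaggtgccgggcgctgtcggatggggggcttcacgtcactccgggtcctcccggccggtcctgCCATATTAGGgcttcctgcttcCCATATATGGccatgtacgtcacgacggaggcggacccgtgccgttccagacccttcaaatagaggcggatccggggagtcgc
JUN: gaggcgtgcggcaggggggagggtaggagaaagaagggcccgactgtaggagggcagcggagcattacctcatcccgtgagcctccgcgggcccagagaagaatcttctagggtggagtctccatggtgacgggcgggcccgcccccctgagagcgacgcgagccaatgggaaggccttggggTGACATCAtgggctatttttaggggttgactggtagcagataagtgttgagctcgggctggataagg

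In EGR1 the capitals mark a match to the EGR1 motif GCGNGGGCG, 198 to 190 bases before the start, and a pair of CArG boxes, the site of serum response factor, 105 to 96 and 83 to 74 bases before it. In JUN they mark a match to the ATF/CRE-type motif TGACNTCA, 67 to 60 bases before the start. The motifs were searched on both strands, without mismatch, together with the AP-1 motif TGANTCA and the NF-κB site. No searched motif overlapped another in these stretches. A CArG box was found in 1.16% of 35093 stretches of the same length, TGACNTCA in 6.87%, TGANTCA in 6.57%, GCGNGGGCG in 8.41% and the NF-κB site in 9.95%. Among the 10 stretches of the 8 genes, a CArG box stood before EGR1 and before 1 of 3 starts of EGR2, TGACNTCA before JUN and JUND, and an NF-κB site before another start of EGR2. No searched motif was found in the stretches of FOS, FOSB, FOSL2 or JUNB, which says only that these letters are not in this window.

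Total counts per library ranged from 3455043 to 20379777. At the depth of the smallest library, WT libraries were expected to show 15510 to 20619 genes and PARP1-KO libraries 17970 to 21571. The 8 libraries with the fewest genes were all WT, and calls gained or lost without them are given below. They are WT no treatment 1 and 3, WT DMSO 2 and 3, WT OL9-119 2, WT Tpc 2 and WT Tpc + OL9-119 1 and 2. PARP1 RNA in PARP1-KO libraries was 4.33% to 5.25% of the WT mean in the same treatment, with an exact two-sided permutation p of 0.0286 in each, the smallest that 4 against 4 libraries can give. The markers NEFL, VIM, KRT8 and KRT18, which HEK293 cells express, were at 188.6 CPM or more in every library, and PAX2, LHX1, NEFM, NES and CDH2 were also detected in all, PAX2 at as little as 0.0979 CPM. Among markers of other cell types, COL1A1 and COL3A1 stood at 7.62 to 43.0 CPM, and PTPRC, CD3E, ALB, PECAM1, CDH5, DCN and HBB stayed at or below 2.74 CPM. In these bulk libraries, a change in the share of cells that express a gene and a change in RNA per cell cannot be told apart.

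CPM, the usual depth-normalised unit, is the count of a gene relative to the TMM-scaled total of its library, and adjusted p is that of the quasi-likelihood test of edgeR, adjusted by Benjamini-Hochberg over the 28922 genes, with a threshold of 0.01. Values of the 4 libraries of a group are given in the order of their replicate number, which has no meaning of its own, and ± is the SD of 4 libraries unless SE is written.

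Across the AP-1 genes, Jun family RNA was far more abundant per length than Fos family RNA in every group. To compare genes, CPM was divided by the exon length in kb. In DMSO-treated WT cells JUN led with 52.4 ± 7.97 CPM per kb, followed by JUND, a Jun protein made in most resting cells, with 37.7 ± 9.34, and JUNB, a weaker activator than JUN, with 17.7 ± 6.77. The same cells held 6.11 ± 1.28 CPM per kb of FOSL2, 6.06 ± 1.19 of FOSL1, 1.97 ± 1.19 of FOS and 0.618 ± 0.523 of FOSB. In DMSO-treated PARP1-KO cells the order was JUN (149 ± 15.4), JUNB (80.6 ± 8.94), JUND (66.9 ± 7.68), FOSL1 (17.7 ± 1.29), FOS (12.9 ± 1.42), FOSL2 (11.6 ± 0.754) and FOSB (9.25 ± 1.40 CPM per kb). JUNB made up more of the AP-1 sum than JUND in all 5 PARP1-KO groups and in WT cells with both agents, and less in the other WT groups.

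Summed over the 7 AP-1 genes, WT cells held 131 ± 6.82 CPM per kb without treatment, 122.6 ± 22.5 with DMSO, 187 ± 8.63 with OL9-119, 267 ± 21.6 with Tpc and 286 ± 37.1 with both agents. PARP1-KO cells held 327 ± 32.5 CPM per kb without treatment, 348 ± 8.71 with DMSO, 349 ± 45.3 with OL9-119, 346 ± 61.2 with Tpc and 403 ± 88.5 with both. The mix also differed. FOS and FOSB together with FOSL1 and FOSL2 made up 9.16% ± 0.407 of the sum in OL9-119-treated WT cells and 16.8% ± 3.52 in untreated WT cells, and every other group mean lay between these. FOS alone made up 1.52% ± 0.693 of the sum in DMSO-treated WT and 3.72% ± 0.447 in DMSO-treated PARP1-KO cells, and JUND 30.5% ± 2.49 and 19.2% ± 2.16. These sums and shares are a description of RNA per length, without a test, and do not give amounts of protein.

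**Figure D1:**
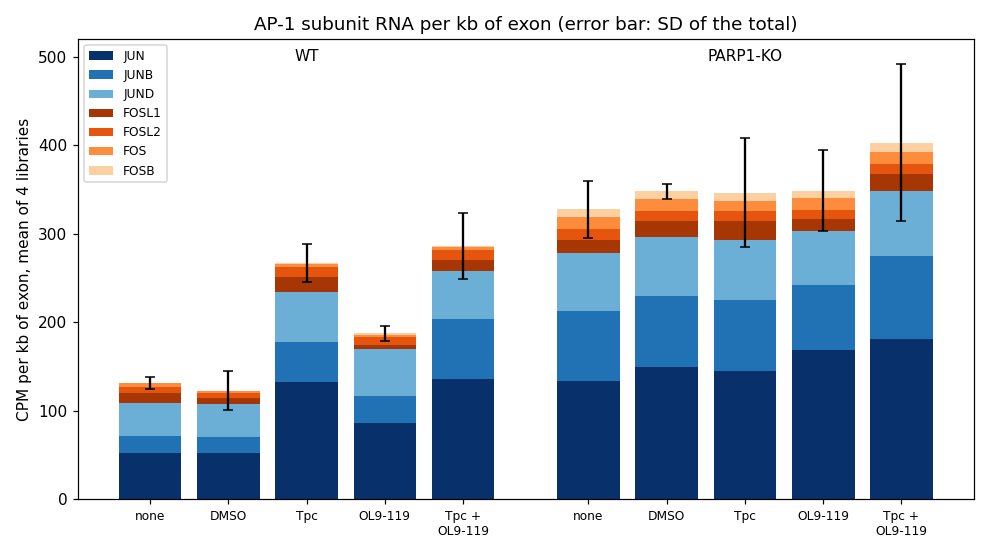
Stacked mean CPM per kb of exon of the 7 AP-1 genes in the 10 groups (x axis, treatment, WT on the left and PARP1-KO on the right), with the SD of the sum over 4 libraries as error bar. The blue Jun segments fill most of every bar, and the WT sums run from 122.6 with DMSO to 286 with Tpc + OL9-119.

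The first question was how the genotypes differ before any drug is given. In DMSO, 9 of the 10 genes were higher in PARP1-KO than in WT cells at adjusted p under 0.01 and 0 were lower, beside 6.67% of all 28922 genes called higher. Without treatment 8 of 10 were higher and 0 lower, beside 5.97% of all genes. The median log2 fold change of the 10 genes was 1.78 in DMSO and 1.39 without treatment, beside 0.19 and 0.17 for all tested genes. FOSB and FOS differed most, by log2 fold changes of 3.92 and 2.72 in DMSO, and JUND and FOSL2 least among those called.

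FOSB and FOS were the genes for which all 20 PARP1-KO libraries lay above all 20 WT libraries, which held for 1.59% of all tested genes. FOSB, a Fos protein known from lasting responses in neurons, was at 2.49, 6.86, 0 and 4.38 CPM in the 4 WT and 46.6, 62.9, 48.9 and 47.1 CPM in the 4 PARP1-KO libraries with DMSO. Over all treatments the WT libraries reached 9.54 CPM of FOSB and the PARP1-KO libraries began at 36.004 CPM, and 2 WT libraries (no treatment 3 and DMSO 3, both among the 8 with few genes) held 0. FOSB differed by a log2 fold change of 3.92 ± 0.41 SE, adjusted p = 4.77e-11, in DMSO and by 4.17 ± 0.42 (adjusted p = 1.67e-11) without treatment. Without the 8 libraries the log2 fold changes of FOSB were 3.99 and 3.21. FOSB differed by 4.53 without WT DMSO 2 and by 3.32 with the genes detected as a covariate, both in DMSO, and by 4.89 without WT no treatment 4. FOS, the founding partner of JUN in AP-1, was at 6.04, 2.22, 11.4 and 5.48 CPM in WT and 39.9, 44.1, 35.3 and 45.3 CPM in PARP1-KO cells with DMSO. FOS differed by a log2 fold change of 2.72 ± 0.29 SE, adjusted p = 6.15e-11, in DMSO and by 1.88 ± 0.27 (adjusted p = 2.55e-07) without treatment. WT no treatment 3 held 25.5 CPM of FOS against 5.496 to 9.27 CPM in the other 3 libraries of its group. Without that library FOS differed by 2.59 without treatment, and without the 8 libraries with few genes by 2.52.

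The Fos relatives FOSL1 and FOSL2, which lack the transactivation domain of FOS and FOSB, differed less. FOSL1 was at 13.502, 12.4, 11.5 and 8.30 CPM in WT and 36.2, 33.99, 30.3 and 33.005 CPM in PARP1-KO cells with DMSO, without overlap (log2 fold change of 1.53 ± 0.24 SE, adjusted p = 1.65e-06). Without treatment it was at 23.3, 16.8, 30.1 and 13.2 CPM in WT and 10.2, 33.9, 31.3 and 34.6 CPM in PARP1-KO cells, and the groups overlapped (log2 fold change 0.41 ± 0.23, adjusted p = 0.223). The first PARP1-KO library of that group held 10.2 CPM against 31.3 to 34.6 CPM in the others, and without it the log2 fold change was 0.67 (adjusted p = 0.0242). Without the 8 libraries with few genes it was 0.89 (adjusted p = 0.00179). FOSL2 was at 35.6, 48.3, 36.7 and 54.5 CPM in WT and 89.0, 86.5, 79.5 and 77.8 CPM in PARP1-KO cells with DMSO (log2 fold change of 0.93 ± 0.16 SE, adjusted p = 6.43e-06). Without treatment FOSL2 differed by 0.83 ± 0.16 (adjusted p = 5.06e-05), with an adjusted p of 0.0105 when only the 8 libraries compared were fitted.

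Of the Jun family, JUNB differed most. JUNB was at 31.4, 21.0, 49.9 and 27.4 CPM in WT and 167, 146, 126.95 and 151 CPM in PARP1-KO cells with DMSO, and every PARP1-KO library stood above the WT libraries (log2 fold change of 2.19 ± 0.18 SE, adjusted p = 5.08e-15). JUN, the strongest activator of its family, was at 166, 164, 218 and 212 CPM in WT and 536, 489, 618 and 513 CPM in PARP1-KO cells (log2 fold change of 1.51 ± 0.13 SE, adjusted p = 1.82e-14). Every PARP1-KO library of JUN and JUND lay above the WT libraries too. JUND was at 68.2, 50.7, 93.7 and 78.1 CPM in WT and 133, 146, 111 and 126.2 CPM in PARP1-KO cells (log2 fold change of 0.83 ± 0.19 SE, adjusted p = 0.000569). Without treatment the log2 fold changes were 2.04 ± 0.17 for JUNB, 1.36 ± 0.12 for JUN and 0.81 ± 0.19 for JUND, with adjusted p of 6.67e-14, 8.41e-13 and 0.00083. With the number of genes detected per library as a covariate, JUND differed by 0.48 in DMSO (adjusted p = 0.0635) and by 0.55 without treatment (adjusted p = 0.0197), and was not called in either.

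EGR1, which many growth signals induce, was at 28.8, 13.504, 22.3 and 16.9 CPM in WT and 60.1, 61.4, 72.1 and 53.0 CPM in PARP1-KO cells with DMSO (log2 fold change of 1.59 ± 0.18 SE, adjusted p = 4.91e-10), and the groups did not overlap. Without treatment EGR1 differed by 1.42 ± 0.18 (adjusted p = 9.02e-09). IER3 was at 51.0, 50.6, 48.2 and 47.4 CPM in WT, the tightest group of this gene, and 218, 187, 187 and 184 CPM in PARP1-KO cells (log2 fold change of 1.98 ± 0.13 SE, adjusted p = 4.5e-19). Without treatment IER3 differed by 1.53 ± 0.12 (adjusted p = 8.18e-15). EGR2, a close relative of EGR1 known from myelinating cells, had little RNA, with a mean of 40.6 counts per library. It was at 3.13, 0.633, 0 and 0.470 CPM in WT and 6.15, 5.12, 5.68 and 5.19 CPM in PARP1-KO cells with DMSO, which did not pass the threshold (log2 fold change of 2.27 ± 0.74 SE, adjusted p = 0.022). EGR2 passed in DMSO with DESeq2 (adjusted p = 0.00609), without the filter on low counts (adjusted p = 0.00308) and without WT DMSO 1 (log2 fold change 3.86, adjusted p = 0.00128).

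**Figure D2:**
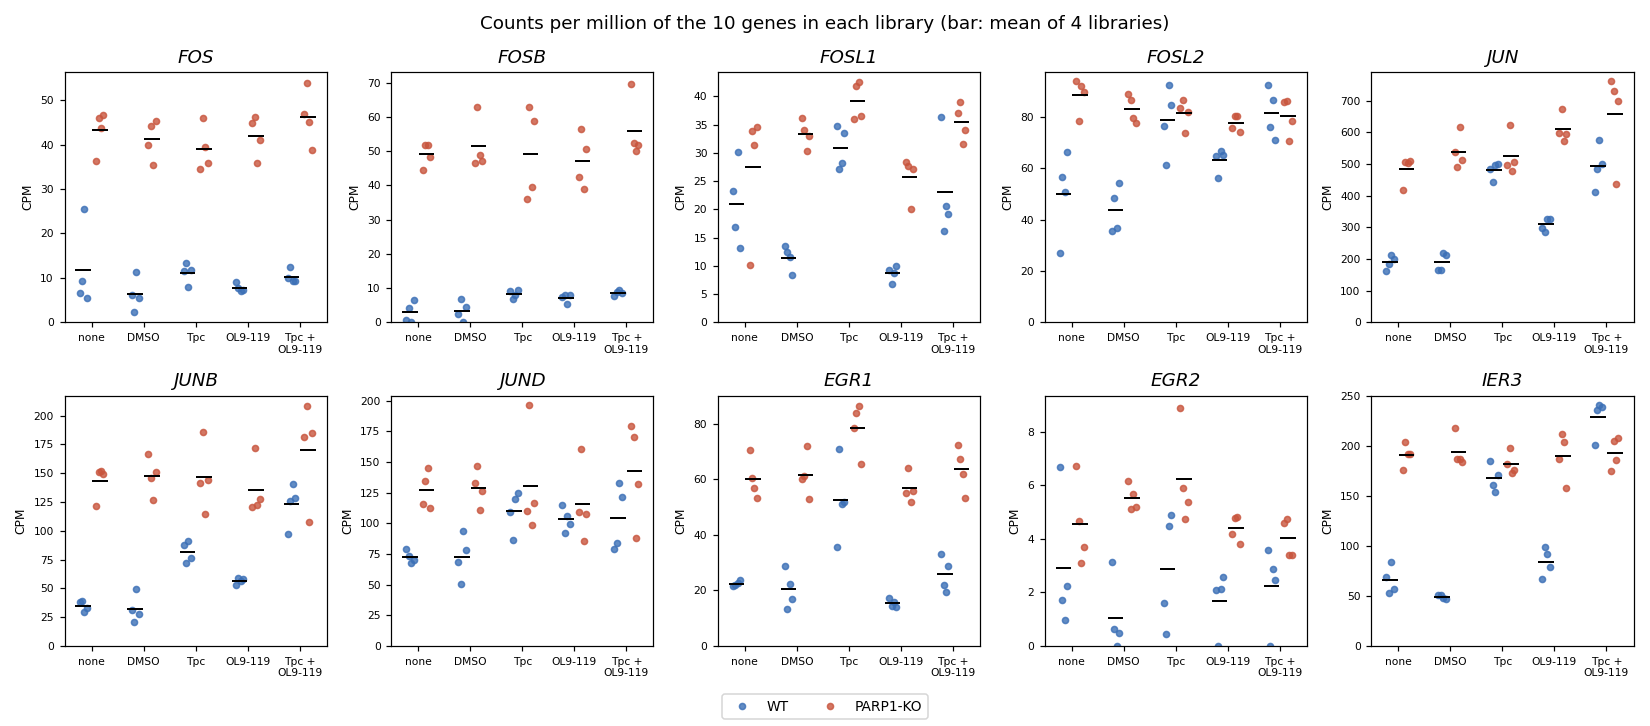
CPM of each of the 10 genes (1 panel each, y axis from 0) in every library of the 10 groups (x axis, treatment), WT in blue and PARP1-KO in red, with a bar at the mean of 4 libraries. The WT points of JUN, JUNB and IER3 climb toward the red ones with Tpc, while those of FOS and FOSB stay below all red ones.

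The second question was whether the solvent itself moved these genes. Between DMSO and no treatment, 0 of the 10 genes were called for WT and 0 for PARP1-KO cells, beside 0% and 0% of all genes in edgeR. At an unadjusted p under 0.05, 3 of the 10 genes and 3116 of all genes passed in WT cells, and 0 and 538 in PARP1-KO cells. DESeq2 called 0 of the 10 genes in either genotype, and 9 and 0 of all genes. The 3 in WT cells were FOS (log2 fold change -0.91 ± 0.29), FOSL1 (-0.86 ± 0.24) and IER3 (-0.42 ± 0.12), with adjusted p of 0.281, 0.237 and 0.269, each lower in DMSO. IER3 was at 69.4, 53.1, 84.3 and 56.7 CPM without treatment and 51.0, 50.6, 48.2 and 47.4 CPM with DMSO, 2 groups that did not overlap. The choice of control therefore touches the drug responses of these genes, which are given against both where a call depends on it.

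In WT cells Tpc raised 6 of the 10 genes over DMSO and lowered 0, beside 0.629% of all genes called higher. IER3 had the highest log2 fold change, JUN, JUNB, EGR1 and FOSL1 lay between 1.34 and 1.42, and FOSL2 was lowest of the 6. The median log2 fold change of the 10 genes was 1.32, beside 0.00 for all genes, and all 10 lay above 0. IER3 went from 51.0, 50.6, 48.2 and 47.4 CPM to 185, 161, 154 and 171 CPM (log2 fold change of 1.77 ± 0.13 SE, adjusted p = 1.04e-16). JUN went from 166, 164, 218 and 212 CPM to 485, 442, 497 and 499 CPM (log2 fold change of 1.34 ± 0.12 SE, adjusted p = 4.15e-12). These Tpc levels of JUN lay within the range of untreated PARP1-KO cells. JUNB went from 31.4, 21.0, 49.9 and 27.4 CPM to 87.5, 72.3, 91.4 and 76.2 CPM (log2 fold change of 1.34 ± 0.17 SE, adjusted p = 1.68e-07). For these 3 genes, every Tpc library lay above every DMSO library.

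EGR1 reached 35.8, 70.9, 51.1 and 51.8 CPM with Tpc, from 20.4 ± 6.67 CPM with DMSO (log2 fold change of 1.35 ± 0.18 SE, adjusted p = 3.26e-07). The second of these libraries, the highest, was among the 8 with few genes, and without those 8 the log2 fold change was 0.97 (adjusted p = 0.00025). All 4 Tpc libraries of EGR1, FOSL1 and FOSL2 lay above the DMSO libraries. FOSL1, a target of AP-1 itself, reached 34.8, 27.2, 28.2 and 33.5 CPM, from 11.4 ± 2.25 CPM (log2 fold change of 1.42 ± 0.24 SE, adjusted p = 7.31e-05). FOSL2 reached 76.6, 61.5, 92.5 and 84.8 CPM, from 43.8 ± 9.17 CPM (log2 fold change of 0.85 ± 0.16 SE, adjusted p = 0.000336). Against untreated cells, the log2 fold change of Tpc was 0.56 (adjusted p = 0.217) for FOSL1 and 0.66 (adjusted p = 0.0111) for FOSL2, neither of which passed. When only the 8 libraries compared were fitted, the adjusted p was 0.0505 for FOSL2 and 0.0199 for EGR1.

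FOS and FOSB, which stood out between the genotypes, did not pass the test with Tpc in WT cells. FOS was at 11.5, 13.4, 8.05 and 11.7 CPM with Tpc (log2 fold change of 0.85 ± 0.29 SE, adjusted p = 0.122), and -0.06 (adjusted p = 1) against untreated cells. FOSB was at 9.01, 6.67, 7.89 and 9.54 CPM (log2 fold change of 1.28 ± 0.42 SE, adjusted p = 0.0994), overlapping the DMSO group. FOSB passed without the filter on low counts (adjusted p = 3.04e-05) and without the 8 libraries with few genes (log2 fold change 1.47, adjusted p = 0.000346), and FOS passed without WT DMSO 3 (1.29, adjusted p = 0.00717). JUND was at 109, 86.7, 119 and 124.8 CPM (log2 fold change of 0.60 ± 0.19 SE, adjusted p = 0.0764), and passed without the filter on low counts and with offsets for GC content and length (adjusted p = 0.00331 and 0.00125). EGR2 was at 1.62, 0.444, 4.49 and 4.90 CPM (log2 fold change of 1.296 ± 0.74 SE, adjusted p = 0.382).

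OL9-119 alone in WT cells raised 3 of the 10 genes over DMSO and lowered 0, beside 0.488% of all genes called higher. These were JUN, JUNB and IER3, each with a smaller log2 fold change than with Tpc, a difference that was not tested, and 8 of the 10 genes lay above 0. JUN was at 298, 286, 327 and 328 CPM (log2 fold change of 0.71 ± 0.12 SE, adjusted p = 0.000127). JUNB was at 53.3, 59.1, 56.8 and 57.8 CPM (log2 fold change of 0.81 ± 0.17 SE, adjusted p = 0.00252). IER3 was at 67.5, 98.8, 92.2 and 79.4 CPM (log2 fold change of 0.77 ± 0.12 SE, adjusted p = 2.06e-05), all above the DMSO libraries. The call of IER3 did not hold against untreated cells, at 0.36 (adjusted p = 0.103). That of JUNB was lost without WT DMSO 1, WT DMSO 2 or WT OL9-119 4 (adjusted p = 0.0122, 0.0271 and 0.0107), against untreated cells (adjusted p = 0.0103) and with the genes detected as a covariate (adjusted p = 0.0156), and all 3 calls were lost when only the 8 libraries compared were fitted (adjusted p = 0.0336 for JUN, 0.205 for JUNB and 0.043 for IER3).

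FOSL1 and EGR1 were the 2 genes with a log2 fold change below 0 with OL9-119. FOSL1 was at 9.22, 6.80, 8.69 and 9.94 CPM, the lowest group mean of this gene (log2 fold change of -0.41 ± 0.25 SE, adjusted p = 0.392). Against untreated WT cells FOSL1 was lower by a log2 fold change of -1.27 (adjusted p = 0.000538). EGR1 was at 17.2, 14.2, 15.9 and 14.04 CPM, also the lowest of its groups (log2 fold change of -0.42 ± 0.18 SE, adjusted p = 0.231), and at -0.54 (adjusted p = 0.093) against untreated cells, which did not pass. FOSB stood at 7.47, 7.85, 5.41 and 7.99 CPM (log2 fold change of 1.08 ± 0.42 SE, adjusted p = 0.166) and FOSL2 at 64.8, 56.1, 66.9 and 65.3 CPM (log2 fold change of 0.54 ± 0.16 SE, adjusted p = 0.0469). Without the 8 libraries with few genes, both passed, with log2 fold changes of 1.14 (adjusted p = 0.0097) and 0.57 (adjusted p = 0.00911). FOSB also passed without the filter on low counts (adjusted p = 0.000955).

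Tpc together with OL9-119 in WT cells raised 5 of the 10 genes over DMSO and lowered 0, beside 1.84% of all genes called higher. IER3 and JUNB rose most. IER3 was at 201, 236, 241 and 239 CPM (log2 fold change of 2.21 ± 0.13 SE, adjusted p = 5.44e-21), the highest of all 10 group means of IER3. JUNB was at 97.6, 126.1, 141 and 129 CPM (log2 fold change of 1.93 ± 0.18 SE, adjusted p = 1.17e-12). JUN was at 413, 485, 574 and 501 CPM (log2 fold change of 1.38 ± 0.13 SE, adjusted p = 1.08e-12). The libraries of these 3 genes all lay above their DMSO groups. FOSL2 was at 92.5, 76.1, 86.5 and 71.1 CPM (log2 fold change of 0.91 ± 0.16 SE, adjusted p = 5.25e-05; adjusted p = 0.015 when only the 8 libraries compared were fitted). FOSL1 was at 36.4, 16.1, 20.7 and 19.2 CPM (log2 fold change of 1.02 ± 0.24 SE, adjusted p = 0.0043), with its first library above the others. Without that library the log2 fold change of FOSL1 was 0.69 (adjusted p = 0.101), and against untreated cells it was 0.16 (adjusted p = 0.785). The call of FOSL1 was also lost without WT DMSO 3 or WT DMSO 4 (adjusted p = 0.0106 and 0.0198), without the 8 libraries with few genes (adjusted p = 0.0777) and when only the 8 libraries compared were fitted (adjusted p = 0.127). FOSB was at 7.61, 8.74, 9.46 and 8.51 CPM and did not pass (log2 fold change of 1.33 ± 0.42 SE, adjusted p = 0.0399), but passed against untreated cells, at 1.64 (adjusted p = 0.0082). FOSB also passed without WT DMSO 2 (log2 fold change 1.95, adjusted p = 0.0042), without the 8 libraries with few genes (1.497, adjusted p = 0.00114) and without the filter on low counts (adjusted p = 7.36e-06). JUND, at 0.51 ± 0.19 (adjusted p = 0.0784), passed with offsets for GC content and length (adjusted p = 1.47e-05).

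EGR1 was at 33.001, 22.1, 19.4 and 28.8 CPM with both agents, against 20.4 ± 6.67 CPM with DMSO (log2 fold change of 0.33 ± 0.18 SE, adjusted p = 0.279). Compared with Tpc alone, the addition of OL9-119 lowered EGR1 alone of the 10 genes and raised 0, beside 0.0622% of all genes called lower. The log2 fold change of EGR1 in this comparison was -1.02 ± 0.18 (SE), with an adjusted p of 0.000503, and the 4 libraries with both agents lay below the 4 with Tpc. Without the highest Tpc library, the second, EGR1 differed by -0.84 (adjusted p = 0.0212) and was no longer called, and with only the 8 libraries compared its adjusted p was 0.0287. JUNB and IER3 lay higher with both agents than with Tpc in every library, by 0.59 ± 0.17 and 0.45 ± 0.12, but did not pass (adjusted p = 0.144 and 0.1). Both passed with offsets for GC content and length (adjusted p = 5.58e-06 and 0.00488). JUN differed by 0.04 ± 0.12 (2 SE interval -0.21 to 0.28).

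The departure of the combined response from the sum of the single responses on the log2 scale was called in edgeR for 0 of the 10 genes, beside 0.00346% of all genes. At an unadjusted p under 0.05, 4 of the 10 and 3008 of all genes passed, and DESeq2 called 0 of the 10. The departure was below 0 for 9 of the 10 genes and furthest from it, relative to its SE, for JUN, at -0.67 ± 0.17 (adjusted p = 0.211). For EGR1, whose response to OL9-119 was -0.42 and to Tpc 1.35, it was -0.60 ± 0.26 (adjusted p = 0.4).

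In PARP1-KO cells the same agents called 0 of the 10 genes against DMSO. This held for Tpc beside 0% of all genes, for OL9-119 beside 0.00346% and for both together beside 0%, and for the addition of OL9-119 to Tpc beside 0%, all in edgeR. At an unadjusted p under 0.05, 1, 0, 1 and 1 of the 10 genes passed in these 4 comparisons, and 1101, 671, 834 and 1186 of all genes. DESeq2 also called 0 of the 10 in each, and 0, 0, 1 and 1 of all genes. The 3 genes called with every agent in WT cells are given for PARP1-KO cells in the order DMSO, Tpc, OL9-119 and both agents. IER3 was at 194 ± 16.2, 182 ± 10.9, 190 ± 23.6 and 193 ± 15.7 CPM, and its log2 fold change with Tpc was -0.09 ± 0.12 (2 SE interval -0.33 to 0.15). JUNB was at 148 ± 16.4, 146 ± 29.1, 135.5 ± 24.5 and 170.5 ± 43.7 CPM, with a log2 fold change of -0.01 ± 0.16 with Tpc (2 SE interval -0.34 to 0.32). JUN was at 539 ± 55.8, 526 ± 66.4, 610 ± 44.2 and 657 ± 149 CPM. Its log2 fold change was -0.03 ± 0.12 with Tpc (2 SE interval -0.28 to 0.21) and 0.18 ± 0.12 with OL9-119 (2 SE interval -0.07 to 0.42). The JUN means with OL9-119 and with both agents exceeded the DMSO mean by more than the SD of the DMSO group.

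The 1 gene under an unadjusted p of 0.05 with Tpc in PARP1-KO cells was EGR1, at 78.5, 84.0, 86.5 and 65.5 CPM against 60.1, 61.4, 72.1 and 53.0 CPM with DMSO (log2 fold change of 0.35 ± 0.17 SE, adjusted p = 1). With both agents, and when OL9-119 was added to Tpc, it was JUN, at 761, 729.7, 436 and 699 CPM (log2 fold change of 0.28 ± 0.12 SE, adjusted p = 1). The third of these JUN libraries lay below all DMSO libraries and the other 3 above them. The same library was the lowest of its group for JUNB and JUND, with 107.3 CPM of JUNB against 181.6 to 208.0 CPM in the others and 88.3 CPM of JUND against 131.9 to 179.0 CPM. FOSL1 was lower in every OL9-119 than in every DMSO library, at 28.3, 27.6, 20.1 and 27.1 CPM against 36.2, 33.99, 30.3 and 33.005 CPM, but did not pass (log2 fold change of -0.37 ± 0.23 SE, adjusted p = 1). EGR2 was likewise apart from DMSO with OL9-119 and with both agents, at log2 fold changes of -0.33 ± 0.69 and -0.46 ± 0.69, with adjusted p of 1 and 1.

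Whether the responses differed between the genotypes was tested directly, as the response in PARP1-KO minus that in WT cells. For Tpc, 3 of the 10 genes were called lower and 0 higher, beside 0.142% of all genes called lower. IER3 differed by -1.86 ± 0.17 (adjusted p = 8.36e-12), JUN by -1.37 ± 0.17 (adjusted p = 1.86e-07) and JUNB by -1.35 ± 0.24 (adjusted p = 0.00059; 0.0126 when only the libraries compared were fitted). All 10 differences were below 0. FOSL2 (-0.88 ± 0.22) and EGR1 (-0.9998 ± 0.25) did not pass (adjusted p = 0.0596 and 0.0552), and did so without the 8 libraries with few genes (FOSL2, adjusted p = 0.000293) or without WT DMSO 1 (EGR1, adjusted p = 0.00398). FOSB, at -1.34 ± 0.54 (adjusted p = 0.456), passed without the 8 libraries (-1.54, adjusted p = 0.00284) and without the filter on low counts (adjusted p = 0.00779). The Tpc dose in PARP1-KO cells was 50 nM against 100 nM in WT, and the part of dose in these differences was not tested.

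OL9-119 was given at the same dose to both lines. Its response was called different for 0 of the 10 genes, beside 0.1% of all genes in either direction, with 6 of the 10 and 2421 of all genes at an unadjusted p under 0.05, and 1 of the 10 and 52 of all genes called by DESeq2. IER3 lay closest, at -0.80 ± 0.17 (adjusted p = 0.0155), followed by JUNB at -0.93 ± 0.24 (adjusted p = 0.114). IER3 passed with DESeq2 (adjusted p = 0.00384), with the genes detected as a covariate (adjusted p = 0.00416) and without WT OL9-119 1 (adjusted p = 0.00597), and JUNB without WT DMSO 3 (adjusted p = 0.000865), without the 8 libraries with few genes (-1.03, adjusted p = 0.00457) and without the filter on low counts (adjusted p = 0.00424). With offsets for GC content and length, both passed (adjusted p = 0.00584 and 0.000125). For both agents together, 3 of the 10 were called lower and 0 higher, beside 0.311% of all genes called lower. IER3 differed by -2.22 ± 0.17 (adjusted p = 1.21e-14), JUNB by -1.72 ± 0.24 (adjusted p = 1.58e-06) and JUN by -1.09 ± 0.17 (adjusted p = 3.52e-05). FOSL2, at -0.96 ± 0.22 (adjusted p = 0.0127), passed without the 8 libraries (-0.88, adjusted p = 0.00247), without WT DMSO 4 (adjusted p = 0.00423), with DESeq2 (adjusted p = 0.00197), without the filter (adjusted p = 0.00309), with the genes detected as a covariate (adjusted p = 0.00671) and with offsets for GC content and length (adjusted p = 0.00208). JUND, at -0.37 ± 0.26 (adjusted p = 0.589), passed with these offsets (adjusted p = 0.00963). These differences share their DMSO libraries with the comparison of the genotypes, and a low level in the WT DMSO libraries enters both.

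**Figure D3:**
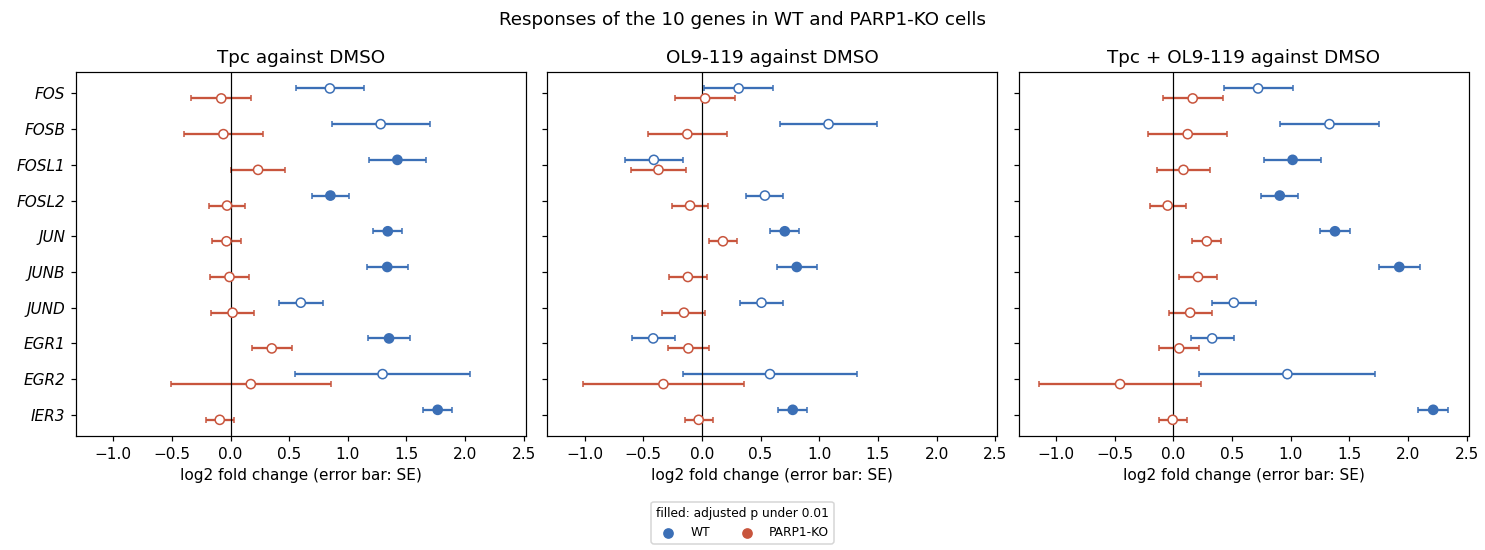
Log2 fold change against DMSO (x axis) of the 10 genes (y axis), with its SE, for Tpc, OL9-119 and both agents, in WT (blue) and PARP1-KO cells (red). Filled points passed adjusted p under 0.01, which 6, 3 and 5 blue points did and 0 red ones.

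Ordered by group mean, all 5 PARP1-KO groups came first for FOS, FOSB, JUNB, JUND, EGR1 and EGR2. Within each genotype most neighbours in the order overlapped in their libraries. For FOS, the gap between the lowest PARP1-KO group, Tpc (34.4 to 46.1 CPM), and the highest WT group, no treatment (5.496 to 25.5 CPM), separated the genotypes. For JUNB the WT groups fell into steps that did not overlap, from DMSO and no treatment (21.0 to 49.9 CPM and 29.5 to 39.4 CPM) over OL9-119 (53.3 to 59.1 CPM) and Tpc (72.3 to 91.4 CPM) to both agents (97.6 to 141 CPM), and the last of these overlapped the PARP1-KO groups. JUN had steps from DMSO (164 to 218 CPM) over OL9-119 (286 to 328 CPM) to Tpc (442 to 499 CPM), where it overlapped untreated PARP1-KO cells (417 to 511 CPM). IER3 was the 1 gene whose highest group mean was of WT cells, with both agents (201 to 241 CPM), which overlapped DMSO-treated PARP1-KO cells (184 to 218 CPM). FOSL2 in WT cells with Tpc (61.5 to 92.5 CPM) or both agents (71.1 to 92.5 CPM) overlapped all PARP1-KO groups.

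FOSB, FOS, JUNB and EGR1 had the widest ranges of group means among the genes with a mean of at least 50 counts, at 5.22, 3.04, 2.42 and 2.34 on the log2 CPM scale. The 3 of 12161 genes whose 10 group means followed them most closely by Pearson's r were OGT, TOPBP1 and SMAD5 (r = 0.994, 0.994 and 0.993) for FOSB, CHAF1A, HAS2 and KRT75 (r = 0.993, 0.993 and 0.991) for FOS, PPP1R15A, SULT4A1 and DUSP1 (r = 0.996, 0.991 and 0.989) for JUNB and ZNF551, DDX5 and PLCXD2 (r = 0.983, 0.982 and 0.982) for EGR1. Among the 10 genes, JUN and JUNB followed each other with r = 0.968, FOSL2 and IER3 with 0.969, and FOSL1 and EGR1 with 0.912, whereas FOSL1 and JUND were least alike, with 0.659. EGR2 was left out of these pairs for its low counts. These values describe 10 points that share libraries and a difference between 2 genotypes, and carry no test.

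The other genes of the pathway were read from 5 lists. Of all 28922 genes, 6.67% were called higher and 5.75% lower in PARP1-KO cells with DMSO, and 5.97% higher and 5.74% lower without treatment. In WT cells 0.629% were called higher with Tpc, 0.488% higher and 0.667% lower with OL9-119, and 1.84% higher and 1.54% lower with both agents. Of 15 tested bZIP partners of AP-1, 6 were higher in PARP1-KO than in WT cells with DMSO and 0 lower, with a median log2 fold change of 0.56 beside 0.19 for all genes. Among them MAFF, a small MAF protein, went from 5.52 ± 3.41 CPM to 37.5 ± 4.20 CPM (log2 fold change 2.77 ± 0.23 SE, adjusted p = 1.1e-14). In WT cells 3 bZIP partners rose with Tpc, 3 with OL9-119 and 3 with both, and 0 fell. ATF3, a stress-induced partner of the Jun proteins, rose in each of these, with OL9-119 from 90.6 ± 15.1 CPM to 205 ± 21.7 CPM (log2 fold change 1.18 ± 0.11 SE, adjusted p = 3.49e-12). JDP2, a repressor of AP-1, was called with OL9-119, going from 7.96 ± 3.08 CPM to 22.4 ± 3.25 CPM (log2 fold change 1.49 ± 0.29 SE, adjusted p = 0.000731). The combined response of ATF3 departed from the sum of the single ones and was called lower, the 1 such gene of the 5 lists.

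Of 25 other immediate early genes, 18 were higher in PARP1-KO cells with DMSO and 16 without treatment, and 0 lower, beside 6.67% and 5.97% of all genes called higher, with medians of 1.20 and 1.06 beside 0.19 and 0.17 for all genes. GADD45B, a stress-induced regulator of MAP kinase signalling, went from 69.3 ± 11.8 CPM to 467 ± 17.8 CPM with DMSO (log2 fold change 2.75 ± 0.14 SE, adjusted p = 8.46e-24). NR4A3, an orphan nuclear receptor, went from 1.13 ± 0.750 CPM to 7.61 ± 0.983 CPM without treatment (log2 fold change 2.75 ± 0.59 SE, adjusted p = 0.000359). In WT cells 7 rose with Tpc, 4 with OL9-119 and 7 with both, and 0 fell, beside 0.629%, 0.488% and 1.84% of all genes called higher. TNFAIP3, an NF-κB-induced feedback inhibitor, went from 11.2 ± 4.88 CPM with DMSO to 158 ± 22.1 CPM with Tpc (log2 fold change 3.82 ± 0.20 SE, adjusted p = 2.07e-22) and to 182 ± 14.5 CPM with both. OL9-119 added to Tpc lowered 2, CCN1 and CCN2, secreted matrix proteins, beside 0.0622% of all genes called lower. CCN1 went from 127.7 ± 35.8 CPM to 68.1 ± 2.92 CPM (log2 fold change -0.91 ± 0.16 SE, adjusted p = 0.000398) and CCN2 from 99.1 ± 18.4 CPM to 54.2 ± 13.2 CPM (-0.88 ± 0.18 SE, adjusted p = 0.00678), in the same comparison in which EGR1 fell.

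Of 24 upstream kinases and factors, 4 were higher in PARP1-KO cells with DMSO, ELK4, MAP3K1, RPS6KA3 and SRF, beside 6.67% of all genes, with a median of 0.18 beside 0.19 for all genes. In WT cells the median of this list was 0.04 with Tpc, 0.04 with OL9-119 and -0.05 with both agents. Of 16 feedback inhibitors, 10 were higher and 1 lower (DUSP2) in PARP1-KO cells with DMSO, beside 6.67% and 5.75% of all genes, with a median of 0.87 beside 0.19. SPRY4, which restrains ERK signalling, went from 2.68 ± 2.31 CPM to 20.1 ± 2.19 CPM (log2 fold change 2.85 ± 0.38 SE, adjusted p = 3.05e-08). In WT cells 4 feedback inhibitors rose with Tpc, 1 with OL9-119 and 4 with both, beside 0.629%, 0.488% and 1.84% of all genes called higher. DUSP1, a phosphatase of the MAP kinases, rose in each of these. Tpc took SPRY4 to 12.7 ± 0.979 CPM in WT cells (log2 fold change 2.18 ± 0.38 SE, adjusted p = 8.92e-05).

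Of 20 genes that AP-1 is known to regulate, 3 were higher (CXCL8, HBEGF and LIF) and 1 lower (TIMP1) in PARP1-KO cells with DMSO, beside 6.67% and 5.75% of all genes, with a median log2 fold change of 0.68 beside 0.19. The share called lower was near that of all genes. TIMP1, an inhibitor of matrix metalloproteinases, went from 199 ± 57.9 CPM to 109.6 ± 7.62 CPM (log2 fold change -0.86 ± 0.13 SE, adjusted p = 4.39e-07). CCND1, a cyclin of the G1 phase, was called lower without treatment, at 86.6 ± 9.29 CPM against 117.1 ± 7.78 CPM (-0.43 ± 0.12 SE, adjusted p = 0.00763). In WT cells Tpc raised 2, CXCL8 and PLAU, beside 0.629% of all genes called higher. Both agents raised 3, CXCL8, PLAU and F3, and lowered TIMP1, beside 1.84% of all genes called higher and 1.54% lower. OL9-119 alone also lowered TIMP1, beside 0.667% of all genes called lower, but its libraries overlapped those with DMSO. CXCL8, a chemokine that NF-κB also induces, went from 15.2 ± 5.73 CPM to 354 ± 61.9 CPM with Tpc (log2 fold change 4.52 ± 0.20 SE, adjusted p = 2.55e-26). F3, the tissue factor of coagulation, reached 17.9 ± 8.03 CPM with both agents from 4.18 ± 1.73 CPM (2.12 ± 0.37 SE, adjusted p = 4.81e-05). In PARP1-KO cells the medians of the 5 lists with Tpc lay between -0.09 and 0.04. The Tpc response of ATF3, MAFF, GADD45B, KLF6, TNFAIP3, DUSP1, CXCL8 and PLAU was called lower in PARP1-KO than in WT cells, beside 0.142% of all genes. So was the OL9-119 response of ATF3 and GADD45B, beside 0.0795% of all genes. The combined response was called lower for the first group together with ZFP36L1 and DUSP16, beside 0.311% of all genes.

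FOSL1 lies at chr11:65892049-65900573 (hg38, minus strand), on a stretch where, of 113 other tested genes within 1 Mb, 83 had a log2 fold change below 0 between PARP1-KO and WT cells with DMSO. Of these 113, 36 were called lower and 2 higher, beside 5.75% and 6.67% of all genes. Their median log2 fold change was -0.61, beside 0.19 for all genes. It was -0.28 for the 1499 tested genes of chromosome 11 other than FOSL1, which include the 113. Without treatment the median of the 113 was -0.61, with 36 lower and 1 higher, beside 5.74% and 5.97% of all genes. FOSL1 with 1.53 and 0.41 stood above both medians. The other genes lie at chr14:75278826-75282230 (FOS), chr19:45467995-45475179 (FOSB), chr2:28392448-28417317 (FOSL2), chr1:58776845-58784048 (JUN), chr19:12791486-12793315 (JUNB), chr19:18279694-18281622 (JUND), chr5:138465479-138469303 (EGR1), chr10:62811996-62819167 (EGR2) and chr6:30743199-30744548 (IER3). With the exons of all transcripts merged, JUNB, JUND and IER3 each form a single block in GENCODE 44. An intron of 1 transcript can be covered by an exon of another in such a block.

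Exons of JUNB overlap HOOK2 on the other strand, and those of IER3 overlap the antisense RNAs IER3-AS1 and HCG20. The strand on which reads were counted is not stated, so the counts of these genes are uncertain where they overlap. HOOK2 stood at 33.6 ± 5.45 CPM with Tpc and 29.3 ± 1.94 with both agents in WT cells and at 27.7 ± 2.83 in PARP1-KO cells with DMSO. IER3-AS1 and HCG20 stayed at or below a mean of 0.393 CPM in the same groups.

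The names of the libraries carry 3 prefixes, whose meaning is not given. Within libraries of 1 prefix, the log2 CPM difference had the sign of the pooled value in all 27 gene-by-prefix cases called between the genotypes with DMSO (0.56 to 5.70) and in all 16 without treatment (0.66 to 5.72). The same held for 18 of 18 cases for Tpc in WT cells (0.31 to 2.38), 9 of 9 for OL9-119 (0.40 to 1.49), 15 of 15 for both agents (0.36 to 2.58) and 3 of 3 for EGR1 when OL9-119 was added to Tpc (-1.67 to -0.12). The groups compared did not overlap in CPM for any of these calls, so the signs could not have differed. The shared sign is therefore no check on the prefixes, and only the sizes are described. A prefix often holds only 1 library of a group.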

How the data were processed

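The deposited table holds whole-number counts of reads per gene, which the authors made with STAR 2.7.8 (GeneCounts mode; genome hg38, Ensembl 93 annotation) from read pairs of 100 bases, sequenced from strand-specific poly(A) libraries, after quality checks with FastQC 0.11.9 and Picard 2.26.6. The strand column they took is not given in the sources used here. All 40 columns were matched to labelled libraries. The 10 genes and 5 pathway lists were chosen with earlier results of these data known.

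Genes with at least 10 counts summed over libraries (28922 of 58395) were fitted in edgeR 4.0.16 (R 4.3.3) with TMM normalization, 1 mean for each of the 10 groups and the quasi-likelihood test, adjusted by Benjamini-Hochberg over all tested genes. The threshold was an adjusted p of 0.01, and 16 comparisons were made. SE is the absolute log2 fold change over the square root of F. Total counts were 3455043 to 20379777 per library. In data simulated for Tpc against DMSO in WT cells, 70 of 100 genes changed 2-fold and 95 of 100 changed 4-fold were called. Of the 27981 genes in that fit, 3 unchanged ones were called. The changed genes were drawn from those with a mean of at least 50 counts. These rates therefore do not cover genes with fewer counts, such as EGR2 (mean of 40.6).

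Alternatives were fits of only the libraries compared, an adjusted p of 0.05, RLE normalization, no filter, filterByExpr, a replicate block, the prefix of the library names, untreated cells as control, offsets for GC content and length, DESeq2 1.42.0 and each library left out. After seeing the data, fits without the 8 libraries with the fewest genes and with the number of genes detected as a covariate were added. Lengths and gene names came from GENCODE 44. Of the pathway lists, up to 3 genes at each end of a comparison were named if they passed, did not overlap between groups and had a mean of at least 50 counts. Other list genes are named where few passed, which was decided after their values were seen. 1 marker of another cell type is not reported here. Figures were drawn with matplotlib 3.10.9.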

Additional observations from a re-analysis of the deposited data

Results flagged for a closer look

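In 9 of 100 groups of 4 libraries, 1 library lay farther from the others than Dixon's 95% limit allows, where chance gives about 5%. PARP1-KO no treatment 1 was low in 3 genes, with 10.19 CPM of FOSL1 (others 31.34 to 34.65), 416.5 of JUN (others 504.6 to 510.6) and 121.5 of JUNB (others 148.9 to 152.3). FOSB was high in PARP1-KO DMSO 2, at 62.91 CPM (others 46.56 to 48.94), and in PARP1-KO Tpc + OL9-119 1, at 69.65 (others 49.93 to 52.48). FOSL1 was low in PARP1-KO OL9-119 3, at 20.09 CPM (others 27.11 to 28.35), and JUNB high in PARP1-KO OL9-119 2, at 172.1 (others 120.5 to 127.3). IER3 was high in PARP1-KO DMSO 1, at 218.5 CPM (others 183.7 to 187.5), and low in WT Tpc + OL9-119 1, at 200.7 (others 236.2 to 240.8).

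The response to Tpc differed between the genotypes in the test of the difference itself for JUN (-1.37), JUNB (-1.35) and IER3 (-1.86, log2 response in PARP1-KO minus WT cells). The response to Tpc + OL9-119 differed for JUN (-1.09), JUNB (-1.72) and IER3 (-2.22). The Tpc dose differed between the lines and cannot be told apart from genotype here.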

How the results depend on the processing

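Of 38 calls among the 10 genes, 25 held under every alternative run. With only the libraries compared in the fit, the number of genes called fell from 3 to 0 for OL9-119 in WT cells, from 5 to 3 for Tpc + OL9-119 and from 1 to 0 for Tpc + OL9-119 against Tpc. It also fell from 6 to 4 for Tpc in WT cells, from 8 to 7 between the untreated genotypes and from 3 to 2 for the difference in Tpc response. With untreated cells as control, the number fell from 6 to 4 for Tpc and from 3 to 2 for OL9-119 in WT cells. The 2 for OL9-119 were JUN, raised, and FOSL1, newly called lower (log2 fold change -1.27, adjusted p = 0.000538). The calls of JUNB and IER3 were lost (adjusted p = 0.0103 and 0.103). Without the 8 libraries with the fewest genes, the number of genes called was 5 for OL9-119 in WT cells and 5 instead of 3 for the difference in Tpc response. With offsets for GC content and length, it was 3 for Tpc + OL9-119 against Tpc, 5 instead of 3 for the difference in the combined response and 2 instead of 0 for that in the OL9-119 response. The last was 1 with an adjusted p of 0.05, without the filter, with DESeq2, without the 8 libraries and with the genes detected as a covariate. Leaving out each library gave 0 to 1 genes for Tpc + OL9-119 against Tpc in WT cells and 0 to 1 for the difference in OL9-119 response. The cause of these changes was not tested. No called gene reversed. Equal replicate numbers did not pair the libraries (correlations of same-numbered deviations from -0.24 to 0.48), and a replicate block changed 1 count of calls, from 9 to 10 for PARP1-KO against WT in DMSO, where EGR2 passed (log2 fold change 2.58, adjusted p = 0.00703).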
